A study of Mus musculus with 13 samples.

Results

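The 10 genes described here are Fos, Fosb, Fosl2, Jun, Junb, Jund, Egr1, Egr2, Ier2 and Ier3, which code for AP-1 subunits, early growth response factors and immediate early response proteins. They were chosen by name, with earlier results of these data known, and are 10 of the 21887 mouse protein-coding genes with bounds on an assembled chromosome. All regions within 50 kb of the bounds of these genes were taken from 18 lists of called regions, and the 10 windows do not overlap. The lists come from chromatin immunoprecipitation with sequencing (ChIP-seq) of STAT5A, LSD1 and HDAC3 in Ba/F3, an IL3-dependent mouse pro-B cell line. In the groups without IL3, cells grown in 1 ng/mL IL3 had gone 6 h without the cytokine. In the groups with IL3, the 6 h of deprivation were followed by 10 ng/mL IL3 for 30 min. Each of the 6 groups of protein and condition had 2 biological replicates, and a further list per group was called by the authors on its pooled replicates. All libraries come from 1 cell line, and no measure of RNA was used here.

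Immediate early genes are transcribed within minutes of a growth signal and need no new protein synthesis for it. FOS and JUN family proteins pair through leucine zippers to form AP-1, and EGR1 and EGR2 are zinc finger factors that bind GC-rich DNA. Their classical route of induction runs through the MAP kinases to SRF and ternary complex factors at CArG boxes. STAT5A is the transcription factor that JAK kinases switch on at the IL3 receptor, LSD1 removes methyl groups from histone H3, and HDAC3 removes acetyl groups from histones.

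The lists differed widely in length, and some stood apart. STAT5A without IL3 had 354 regions in replicate 1 and 4513 in replicate 2, LSD1 without IL3 had 1007 and 15786, and HDAC3 with IL3 had 683 and 265. In HDAC3 with IL3 replicate 2, 1 region held 74.2% of the summed score of the list, and whether this library is the sample its label names was not tested. The other replicate lists held 535 to 13574 regions, the pooled lists 1208 to 17092, and the reads per library were not given in the sources used here. The number of regions called moves with the depth of a library and the caller's threshold. Numbers of genes called are therefore set beside the share of all genes, and pooled regions per gene beside the mean over all genes. Each region carries a score from the authors, used here to compare regions within 1 list. Scores of different lists are printed side by side but were not put on a common scale. The lowest score was 60.5 in LSD1 without IL3 replicate 1 and 12.4 in LSD1 with IL3 replicate 1.

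Pooled STAT5A regions lay at or near starts of Fos and Egr2 with IL3 and of Ier3 without IL3, but none was in both replicates. RefSeq (GRCm38.p6) gives a window of 250 bases before to 50 after the start for 8 of the genes, Egr1 and Ier2 not among them. These 8 genes have 12 windows, 5 of them at Egr2. Of the 12, the window of Fos and 1 of Egr2 touched a region of the pooled STAT5A list with IL3, against 7.96% of all 32851 such windows. The Ier3 window touched 1 of the pooled list without IL3, against 6.96% of all windows. Of the STAT5A replicate lists of the same condition, replicate 1 with IL3 touched the Egr2 window (3.94% of all windows). None touched those of Fos or Ier3. The windows of Fosb, Fosl2, Junb and Jund touched no region of any list. For LSD1, the windows of Fos and Jun touched a region of the pooled list with IL3 (15.2% of all windows). The window of Fos and 1 of Egr2 touched one of the list without IL3 (14.2%). The Jun window was the only one in a pooled HDAC3 region, with IL3 (0.511% of all windows), and none was in one without IL3 (2.03%).

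The 3 windows touched by a pooled region with IL3 are printed below, 5′ to 3′ on the strand of the gene, to show how far the called region reaches into each. Capitals mark the bases inside the region: for Fos (chr12:85473640-85473939) a STAT5A region of score 25.6, for Egr2 (chr10:67537316-67537615) a STAT5A region of score 27.8, and for Jun (chr4:95052173-95052472, minus strand) an LSD1 region of score 18.
Fos: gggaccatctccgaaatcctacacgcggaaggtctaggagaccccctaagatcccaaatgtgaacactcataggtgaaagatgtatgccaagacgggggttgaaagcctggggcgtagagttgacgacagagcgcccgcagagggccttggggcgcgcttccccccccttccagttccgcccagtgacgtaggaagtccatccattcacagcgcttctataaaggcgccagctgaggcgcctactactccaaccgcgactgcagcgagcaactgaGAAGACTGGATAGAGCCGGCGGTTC
Egr2: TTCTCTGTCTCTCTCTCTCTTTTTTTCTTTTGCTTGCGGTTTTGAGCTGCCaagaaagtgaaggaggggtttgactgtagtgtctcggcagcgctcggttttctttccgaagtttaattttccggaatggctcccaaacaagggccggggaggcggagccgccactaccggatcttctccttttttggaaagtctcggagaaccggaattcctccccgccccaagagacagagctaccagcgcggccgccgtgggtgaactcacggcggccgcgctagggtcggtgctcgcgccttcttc
Jun: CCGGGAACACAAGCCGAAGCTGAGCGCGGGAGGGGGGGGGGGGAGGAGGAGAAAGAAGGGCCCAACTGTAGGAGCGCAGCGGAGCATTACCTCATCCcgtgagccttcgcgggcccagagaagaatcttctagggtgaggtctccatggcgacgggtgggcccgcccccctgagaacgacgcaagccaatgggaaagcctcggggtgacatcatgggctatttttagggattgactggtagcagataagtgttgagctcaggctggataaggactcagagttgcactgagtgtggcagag
The Fos region covers the last 25 bases, from inside the transcribed part, and the Egr2 region the first 51 bases, at the far end from the start. The Jun region covers the 97 bases farthest upstream. All 3 sit in the body of their list by score, with rank 6562 and 6017 of 15546 for STAT5A and 5715 of 17092 for LSD1.

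Both strands of all windows were searched for sites of the factors named above. The STAT site TTCNNNGAA was in no window of these genes and in 8.30% of all windows, and the same site with 1 more base between its ends in none and 6.95%. The AP-1 site TGANTCA (7.81% of all windows), the cyclic AMP response element TGACGTCA (1.79%), the EGR site GCGTGGGCG (0.612%) and the ETS site CCGGAAGT (3.89%) were in none either. The CArG box, the SRF site, was in 1.63% of all windows and in 4 of the 5 windows of Egr2, which has several starts. The Egr2 windows that begin at 67537619, 67537620 and 67537680 overlap and share 1 box, CCATATATGG. In the window printed above the CArG box reads CCTTTTTTGG, from base -72 to -63 relative to the start, outside the capitals. These letters describe the windows, and the sequence of called regions farther from a start was not analysed here.

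With IL3, STAT5A regions of high pooled score that no replicate list held before appeared at Egr1, Fosl2, Junb, Jund and Ier3. None of them was in a start window. At Ier3 a replicate region without IL3 lay 57 bp away, and at Jund the region ranked only 2842 of 6288 in replicate 2. A region counts as gained when both replicates with IL3 held it and neither replicate without IL3 did. By that rule 6 of the 10 genes (Fosb, Fosl2, Junb, Jund, Egr1 and Ier3) had a gained STAT5A region within 50 kb, against 15.6% of all genes. In the pooled lists, 8 of the 10 had a STAT5A region without IL3 (40.9% of all genes) and all 10 had one with IL3 (61.4%). That was 2.4 and 5.5 regions per gene, against 0.724 and 1.78 over all genes. The 6 genes with a gained region shared 10 of the 1811 gained regions of the genome. No gene of the 10 had a region lost by the reverse rule, and 0.164% of all genes had one. Deprived replicate 1 held a STAT5A region only at Fosb and Ier3, so a loss could not be called at the other genes. The gained and lost numbers are therefore not on an equal footing. The 6 became 9 with stimulated replicate 1 left out and 10 with stimulated replicate 2 left out, and the share of all genes rose to 37.2% and 55.2%. With either deprived replicate left out it remained 6, against 15.7% and 17.6% of all genes.

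The number of STAT5A regions at the 10 genes together was 2 and 21 in replicates 1 and 2 without IL3, and 48 and 23 with IL3. The groups did not overlap, although replicate 2 of each lay only 2 regions apart. The means were 11.5 ± 13.4 and 35.5 ± 17.7 (SD, n = 2 each), a difference of 24.0 (exact permutation test, two-sided, p = 0.333). With 2 libraries against 2 no lower p is possible. The difference was 14.5 with deprived replicate 1 left out, 11.5 with stimulated replicate 1 left out and 36.5 with stimulated replicate 2 left out. As a share of each list, the 10 genes held 0.565% and 0.465% without IL3 and 0.354% and 0.366% with it. That difference was -0.155 percentage points (exact permutation p 0.333), so the lists as a whole lengthened more than the counts here did. It turned to 0.0245 within 10 kb of the genes and 0.0526 in the upper 50% of each list by score. Over the 6 comparisons of number and share for the 3 proteins, the lowest Benjamini-Hochberg adjusted p was 0.999.

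**Figure D1:**
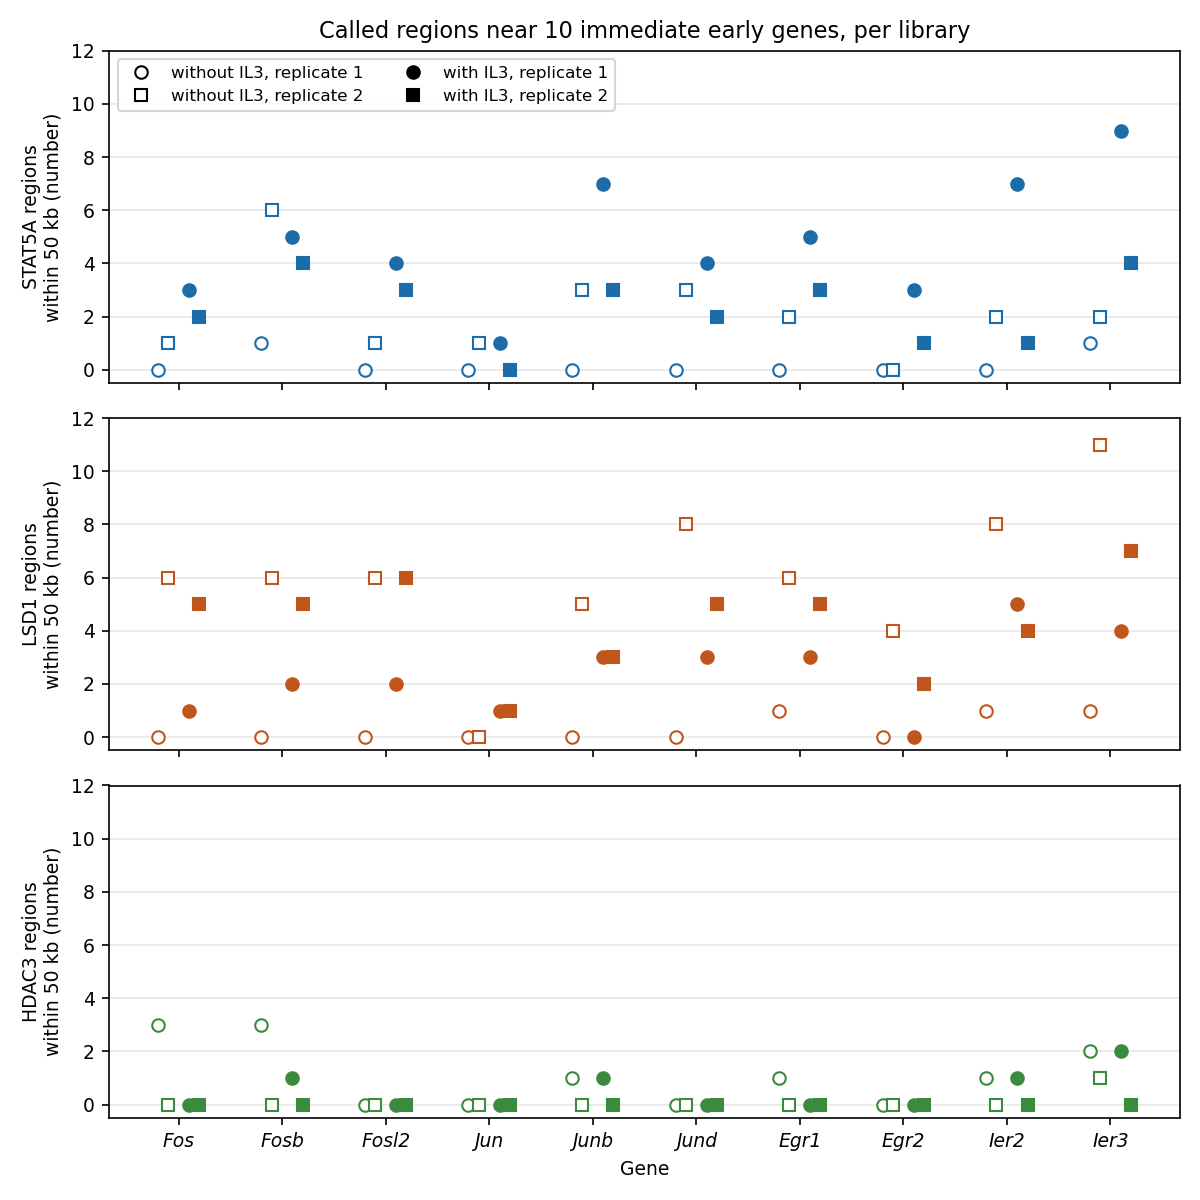
Number of called regions within 50 kb of each gene (vertical axis) for STAT5A, LSD1 and HDAC3, with open symbols without IL3, filled symbols with IL3, circles for replicate 1 and squares for replicate 2. STAT5A reaches 9 regions at Ier3 in replicate 1 with IL3, LSD1 reaches 11 at Ier3 in replicate 2 without IL3, and HDAC3 never exceeds 3.

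In the FOS family, Fosl2 carried the strongest STAT5A. It codes for FRA2, a FOS protein that lacks the strong activating end of FOS. STAT5A regions at Fosl2 numbered 0 and 1 without IL3 and 4 and 3 with it, so the groups did not overlap. The strongest lay 38.2 kb beyond the end of the gene, on chromosome 5 at 32196069 to 32196311 (mm10). It scored 298.3 (rank 464 of 13574) in replicate 1 and 95 (rank 311 of 6288) in replicate 2 with IL3, and 215.8 in the pooled list, and was in no list without IL3. Only 2.84% of all genes had a STAT5A region of at least that pooled score within 50 kb. LSD1 was called over the same place in both replicates with IL3 (27.2 and 29.3) and in neither without. A second gained region, 34.2 kb from the gene at 32192065 to 32192250, scored 52.2 and 85.0 with IL3, and there LSD1 was called in replicate 2 of both conditions. The gene nearest to the strongest pooled region is not Fosl2 but the phospholipase gene Plb1, 36450 bp from it. That gene lies outside the window of Fosl2, and no other protein-coding gene lies within 50 kb of Fosl2.

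Fos, which codes for the founding member of the family, had weaker and scattered regions. STAT5A regions numbered 0 and 1 without IL3 and 3 and 2 with it. The pooled list with IL3 had 7 at Fos, a number that 3.60% of genes reach, but their scores were 15.0 to 51.3 and none was in both replicates with IL3. Of these 7, 1 lay inside the gene near its start and 1 lay 306 bp upstream of it. Among the places where LSD1 and HDAC3 met, 1 lay about 5 kb upstream, on chromosome 12 at 85468683 to 85468987. LSD1 was called there in replicate 2 without IL3 (45.7) and in both replicates with IL3 (17.3 and 18.7), and HDAC3 in replicate 1 without IL3 (39.5). STAT5A was called there in no list. All 3 proteins were called at 85473410 to 85473765, 125 bp upstream. There STAT5A (30.0) and LSD1 (24.0) were in replicate 2 with IL3, and HDAC3 (39.5) was in replicate 1 without IL3.

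Fosb, which codes for a further FOS protein, was the family member with most STAT5A before IL3 was given. Its window held 1 and 6 STAT5A regions without IL3 and 5 and 4 with it, so the groups overlapped. The STAT5A region with the highest pooled score in its window was in all 4 replicate lists, on chromosome 7 at 19344932 to 19345209, inside the DNA repair gene Ercc1. It scored 38.3 and 50.9 without IL3 and 78.3 and 25.0 with it, and ranked 62 of 5051 in the pooled list without IL3. The 1 gained region lay 22.7 kb upstream, at 19332820 to 19333049, with scores of 33.6 and 60.0. It belongs to a place that all 6 pooled lists held, and a STAT5A region of replicate 2 without IL3 ends just before it, at 19332791. With neighbours up to 200 bp apart counted as 1 region, Fosb had no gained region. By that rule 7 of the 10 gained STAT5A regions remained, at 5 genes, against 16.5% of all genes, and the other 2 that did not were 1 each at Egr1 and Ier3.

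In the JUN family, Junb and Jund had gained STAT5A regions and Jun did not. Junb codes for a JUN protein that often opposes JUN in cell growth. Its STAT5A regions numbered 0 and 3 without IL3 and 7 and 3 with it, so the groups touched at 3. The strongest lay 241 bp beyond the 3′ end of the gene, on chromosome 8 at 84976459 to 84976668. With IL3 it scored 242.4 (rank 673) in replicate 1 and 175.1 (rank 78) in replicate 2, and 209.4 in the pooled list. A pooled score that high was found at 3.15% of all genes. LSD1 was in no list there, and HDAC3 was called in replicate 1 without IL3 (33.8) and in neither replicate with IL3. The 5 pooled STAT5A regions with IL3 at Junb included 1 (36.3) about 6.8 kb upstream that LSD1 and HDAC3 shared with IL3.

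Jund codes for a JUN protein that most resting cells already hold. Its STAT5A regions numbered 0 and 3 without IL3 and 4 and 2 with it, which overlap. A gained region 23.9 kb upstream scored 253.6 (rank 624 of 13574) in replicate 1 and 35 (rank 2842 of 6288) in replicate 2 with IL3. It lies in Lsm4, which codes for an RNA splicing protein, on chromosome 8 at 70673577 to 70673853. A second, 2.1 kb upstream of Jund at 70695408 to 70695643, scored 48.5 and 45.0. LSD1 and HDAC3 were in no replicate list at either. Jun itself, the main partner of FOS, was nearly bare. STAT5A regions numbered 0 and 1 without IL3 and 1 and 0 with it, and no other gene lies within 50 kb.

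Among the zinc finger factors, Egr1 had the highest-scoring STAT5A region of all 10 genes. STAT5A regions at Egr1 numbered 0 and 2 without IL3 and 5 and 3 with it, so the groups did not overlap. On chromosome 18 at 34880649 to 34880868, 15.7 kb from the gene and nearest to it, a gained region scored 518.4 (rank 71 of 13574) and 100 (rank 273 of 6288). Its pooled score of 335.4 ranked 83 of 15546, and 0.603% of genes had one as high. LSD1 was called beside it in replicate 2 of both conditions, with 39.6 without and 29.3 with IL3, and HDAC3 only in the pooled list with IL3 (14.0). A second gained region lay 1.4 kb from the gene, at 34859543 to 34859811, with scores of 63.4 and 60.0 and no LSD1 or HDAC3 overlapping it. A STAT5A region of replicate 2 without IL3 (20.4, rank 2551 of 4513) lay 149 bp away. LSD1 of replicate 1 without IL3 (75.6, rank 383 of 1007) lay over that deprived STAT5A region. Under the rule that joins neighbours, the region 1.4 kb from the gene was not gained. Egr2 had 0 and 0 STAT5A regions without IL3 and 3 and 1 with it. The groups did not overlap, but no Egr2 region was in both replicates with IL3, and the highest pooled score was 44.9.

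Ier3 and Ier2 differed in the rank of their regions. Ier3, which codes for a small regulator of cell survival, had 1 and 2 STAT5A regions without IL3 and 9 and 4 with it, without overlap. The strongest lay 49 bp beyond its 3′ end, on chromosome 17 at 35822960 to 35823152, with 238.7 (rank 695) and 145.0 (rank 125) with IL3 and 200.8 in the pooled list. Neither replicate without IL3 held it, but the pooled list without IL3 did, at 16.8, and a region of replicate 2 without IL3 (27.2) lay 57 bp away. With neighbours up to 200 bp apart counted as 1 region it was not gained. The same place had LSD1 in replicate 2 without IL3 (33.5) and both replicates with IL3 (47.0 and 40), and HDAC3 in replicate 1 without (50.8) and with IL3 (41.1). It was in all 6 pooled lists. The other gained region of Ier3, 8.2 kb upstream, scored 134.3 and 45.0, and a further strong region, 1.4 kb upstream (147.4 in the pooled list), was called in replicate 1 alone.

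The STAT5A region with the best rank at these genes before IL3 also lay in the Ier3 window, on chromosome 17 at 35841135 to 35841429, next to the DNA damage gene Mdc1. All 4 STAT5A libraries held it, with 43.8 and 71.3 without IL3 and 44.8 and 50 with it, and it ranked 28 of 5051 in the pooled list without IL3. Ier2, which codes for a nuclear immediate early protein, had 0 and 2 STAT5A regions without IL3 and 7 and 1 with it. These overlap, none was gained, and the highest pooled score was 44.9. The pooled list with IL3 nevertheless held 10 regions within 50 kb of Ier2, the most of the 10 genes and a number that 0.685% of genes reach. Most of these lay in or nearest to other genes. Those 37773 to 40823 bp away were in or nearest to Lyl1, and others lay in Cacna1a and Trmt1.

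**Figure D2:**
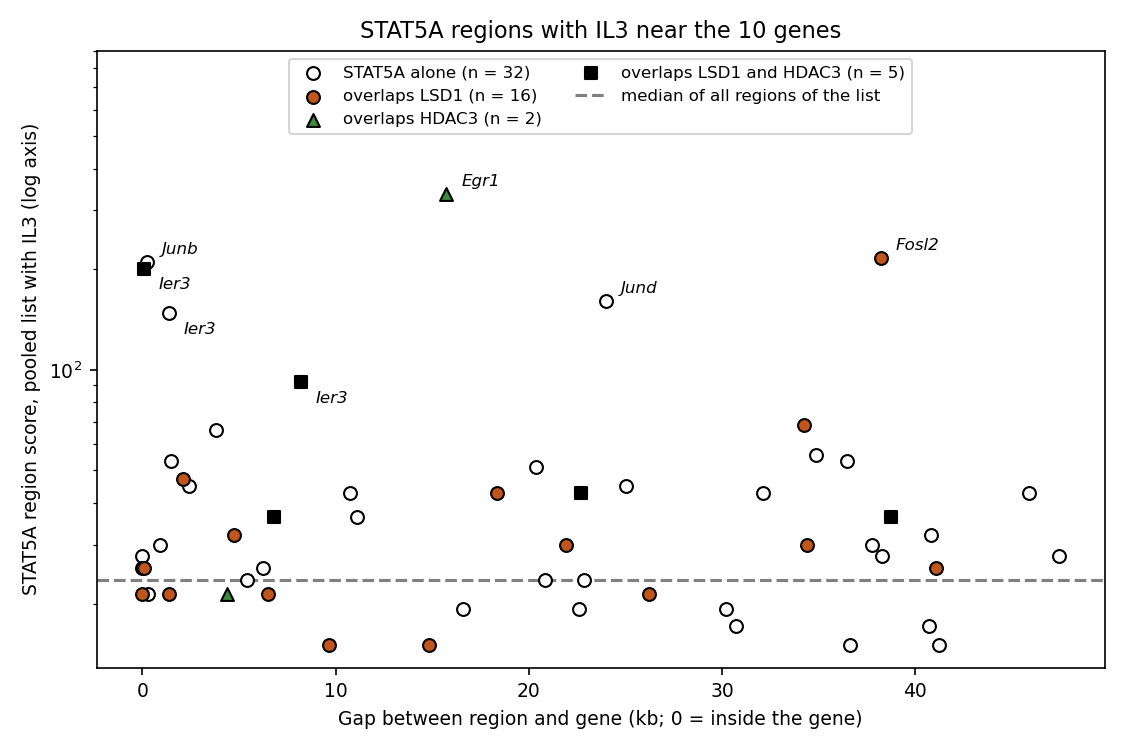
Score of each of the 55 STAT5A regions of the pooled list with IL3 (vertical log axis) against its gap to the gene in kb (horizontal axis), with symbols for overlap with LSD1 or HDAC3 and a dashed line at the median of the whole list, 23.5. The 7 regions above 90 are labelled, and 3 of them lie within 2 kb of their gene.

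Across the 10 genes, the order by highest pooled STAT5A score with IL3 was Egr1 (335.4), Fosl2 (215.8), Junb (209.4), Ier3 (200.8) and Jund (160.2), then Fosb (55.5), Fos (51.3), Egr2 and Ier2 (44.9 each) and Jun (29.9). Replicate 1 placed the first 5 at ranks 71 to 695 and replicate 2 at ranks 78 to 2842, so the order among them is not fixed by these libraries. The median score of the 55 pooled regions was 29.9, against 23.5 over the list, and without IL3 it was 16.8 for both. Of the 55 regions, 44 were in replicate 1, 18 in replicate 2, 12 in both and 5 in neither. Only 7 of the 55 (12.7%) overlapped a STAT5A region without IL3, against 10.9% of the whole list. Most lay at a distance: 3 inside the gene, 5 within 1 kb, 14 at 1 to 10 kb and 33 at 10 to 50 kb. For 31 of the 55 the nearest protein-coding gene was 1 of the 10. By number alone, Fos, Fosl2, Egr1, Egr2 and Ier3 had more STAT5A regions in each replicate with IL3 than in either without, 5 of 10 against 18.0% of all genes. None had fewer in each (0.0183% of all genes), which was possible only at Fosb and Ier3, where deprived replicate 1 held a region.

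**Figure D3:**
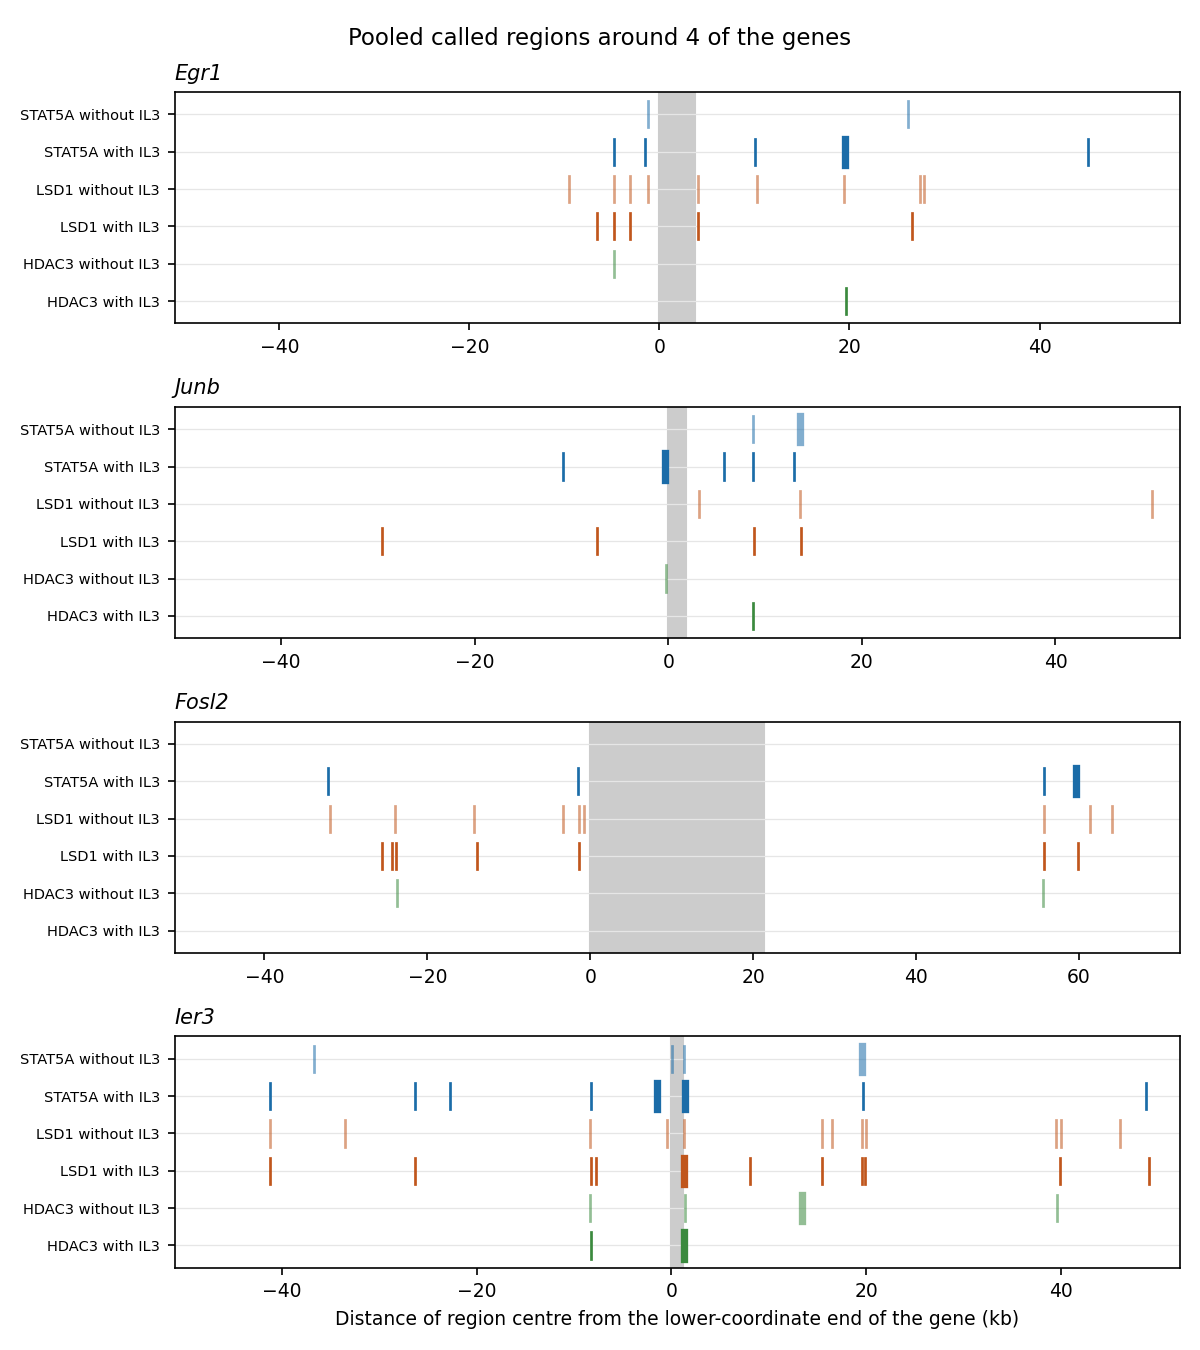
Pooled regions around Egr1, Junb, Fosl2 and Ier3, with the gene as a grey band, 1 row per protein and condition, and the distance of the region centre from the lower-coordinate end of the gene in kb (horizontal axis). Thick lines are regions in the top 5% of their list by rank, and the thick STAT5A lines with IL3 stand 15.7 kb beyond Egr1, 241 bp from Junb, 38.2 kb beyond Fosl2 and beside Ier3.

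LSD1 lay at most of the 10 genes in both conditions, and its number did not separate the conditions. The LSD1 lists held 3 and 60 regions at the 10 genes without IL3 and 24 and 43 with it, so the groups overlapped. The means were 31.5 ± 40.3 and 33.5 ± 13.4 (SD, n = 2 each), a difference of 2.00 (exact permutation p 1.00). The difference took both signs when libraries were left out: -26.5 and 30.5 with deprived replicate 1 or 2 left out, and 11.5 and -7.50 with stimulated replicate 1 or 2 left out. As a share of the list the values were 0.298% and 0.380% without IL3 and 0.370% and 0.372% with it. In the pooled lists 9 of the 10 genes had an LSD1 region without IL3 (63.0% of all genes) and 10 with it (64.7%). Pooled LSD1 regions per gene were 6.8 and 5.8, against 2.11 and 2.22 over all genes. Of the 58 pooled regions with IL3, 27 (46.6%) overlapped one without, against 52.3% of the list.

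By gene, LSD1 numbers were highest at Ier3, with 1 and 11 regions without IL3 and 4 and 7 with it. Ier2 had 1 and 8 against 5 and 4, Jund 0 and 8 against 3 and 5, and Egr1 1 and 6 against 3 and 5. Fos had 0 and 6 against 1 and 5, Fosb 0 and 6 against 2 and 5, Fosl2 0 and 6 against 2 and 6, and Junb 0 and 5 against 3 and 3. Egr2 had 0 and 4 against 0 and 2. At each of these 9 genes both values with IL3 lay within the range of the 2 without, where replicate 1 was low and replicate 2 high. Jun was the only gene whose LSD1 groups did not overlap, with 0 and 0 against 1 and 1, and 2.25% of all genes had more regions in each replicate with IL3. None of the 10 had fewer in each (0.0640% of all genes), which was possible only at Ier3, Ier2 and Egr1, where deprived replicate 1 held a region. That Jun region lies 165 bp upstream of the gene, on chromosome 4 at 95052387 to 95052663, with scores of 17.3 and 29.3, and reaches into the Jun window printed above.

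An LSD1 region in both replicates with IL3 and neither without was found at 5 of the 10 genes (Fosb, Fosl2, Jun, Jund and Egr1), against 9.09% of all genes. None of the 10 had a lost one (0.850% of all genes), which was possible only at Egr1, Ier2 and Ier3, where deprived replicate 1 held LSD1. The 5 fell to 1 when overlap had to cover 50% of the shorter region, while 10.5% of all genes had one by that rule, and rose to 8 with deprived replicate 2 left out, 10 with stimulated replicate 1 left out and 8 with stimulated replicate 2 left out. The share of all genes was then 27.6%, 40.2% and 25.5%. With deprived replicate 1 left out, 5 genes had one, against 9.30% of all genes. At Jund, the pooled LSD1 list without IL3 held a region at the same place (30.4). The gained STAT5A and LSD1 regions fell on 1 place at a single gene, the one 38.2 kb from Fosl2.

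The highest-scoring LSD1 region near the 10 genes was on chromosome 8 at 84703451 to 84703849, within 50 kb of Ier2 but inside Lyl1, a transcription factor gene of blood stem cells. It was in all 4 replicate lists, with 105.8 and 161.5 without IL3 and 74.3 and 141.2 with it, and ranked 90 of 16890 and 64 of 17092 in the pooled lists. About 2 kb away, in the same gene, a place at 84701422 to 84701806 was in all 6 pooled lists. Ier2, Fosb and Ier3 were the 3 genes with such a place, which 1.85% of all genes had. At Ier2 it therefore lay in a neighbour, at Fosb beyond 22 kb, and at Ier3 directly behind the gene. Inside Ier2 itself, an LSD1 region scored 39.6 in replicate 2 without IL3 and was in no other replicate list. A second place, at the gene's higher-coordinate end, had LSD1 in replicate 2 without IL3 (27.4) and in replicate 1 with IL3 (24.8).

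The HDAC3 lists were short, and few of their regions lay at the 10 genes, but pooled HDAC3 was at more of these genes than of all genes. The lists held 11 and 1 regions there without IL3 and 5 and 0 with it, so the groups overlapped. The means were 6.00 ± 7.07 and 2.50 ± 3.54 (SD, n = 2 each), a difference of -3.50 (exact permutation p 0.667). With deprived replicate 1 or 2 left out it was 1.5 and -8.50, and with stimulated replicate 1 or 2 left out -6.00 and -1.0. The share of the list was 0.674% and 0.187% without IL3 and 0.732% and 0% with it. No gene of the 10 had a gained or a lost HDAC3 region, against 0.00914% and 1.01% of all genes. These 0 gained rest on stimulated replicate 2, the list that stood apart and whose label was not tested: with it left out, 3 genes had a gained one, against 3.47% of all genes. The gained number was 0 with any of the other 3 lists left out, where 0.0594%, 0.0366% and 1.75% of all genes had one. None of the 10 had more, or fewer, HDAC3 regions in each stimulated replicate than in either deprived one (0.0548% and 1.62% of all genes). Stimulated replicate 2 held 0 regions at these genes, so more in each was not possible. Deprived replicate 2 held 1, at Ier3, so fewer in each, or a lost region, was possible only there.

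The 11 HDAC3 regions of replicate 1 without IL3 were at Fos and Fosb (3 each), Ier3 (2), and Junb, Egr1 and Ier2 (1 each). The 5 of replicate 1 with IL3 were at Ier3 (2), Fosb, Junb and Ier2. The single region of replicate 2 without IL3 lay in the Ier3 window, near the tubulin gene Tubb5, with 47.7 (rank 30 of 535). Pooled, HDAC3 had 18 regions at 9 of the 10 genes without IL3 (24.4% of all genes) and 8 at 6 with it (10.8%). That was 1.8 and 0.8 regions per gene, against 0.383 and 0.138 over all genes. Of the 18, 9 were in neither replicate list and none in both, and of the 8, 4 were in neither and none in both. Of the 8, the place in Lyl1 (33.4, rank 31 of 1208), the one behind Ier3 (31.6, rank 39) and the one upstream of Fosb (29.9, rank 51) scored highest. Fosl2, Jun, Jund and Egr2 had HDAC3 in no replicate list.

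Overlap of the 3 proteins was counted in the pooled lists, with 1 bp or more shared. With IL3, 21 of the 55 STAT5A regions at the 10 genes overlapped LSD1 (38.2%, 95% Wilson interval 26.5 to 51.4), against 33.4% of the list. Without IL3 it was 14 of 24 (58.3%, 38.8 to 75.5), against 52.5%. HDAC3 overlapped 7 of the 55 with IL3 (12.7%, 6.30 to 24.0), against 4.56% of the list, and 4 of 24 without (16.7%), against 17.1%. LSD1 regions overlapped HDAC3 at 7 of 58 with IL3 (12.1%, 5.97 to 22.9; list 4.88%) and 13 of 68 without (19.1%, 11.5 to 30.0; list 13.8%). For STAT5A with LSD1 the intervals include the share of the list, and for STAT5A or LSD1 regions with HDAC3 under IL3 they lie above it. These last 2 comparisons are not separate, as both rest on the same 8 pooled HDAC3 regions with IL3. Of the 8, 4 are in replicate 1 with IL3 and 4 rest on the pooled list alone. The latter are those at 14.0 at Egr1, Ier2 and Ier3 and the one at Jun. Counted in replicate lists, the 7 overlaps of LSD1 and HDAC3 with IL3 fell to 4. Read from the HDAC3 side, 7 of its 8 regions with IL3 overlapped STAT5A (87.5%, 52.9 to 97.8; list 58.7%) and 7 of 8 LSD1 (list 69.0%). Without IL3 it was 4 of 18 for STAT5A (22.2%, 9.0 to 45.2; list 25.8%) and 13 of 18 for LSD1 (72.2%; list 69.6%). The 7 overlaps of STAT5A and HDAC3 with IL3 sit at 5 genes, 2 each at Ier2 and Ier3 and 1 each at Fosb, Junb and Egr1. Intervals cover counting error only and treat regions at the same gene as independent.

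Of the 10 gained STAT5A regions, 6 had LSD1 in a replicate list with IL3 (53.8% of all 1811) and 5 had it already without IL3 (37.5%). HDAC3 was at 2 with IL3 (10.8%) and 3 without (10.6%). The 4 with no LSD1 in any replicate list were those behind Junb, 1.4 kb from Egr1 and the 2 of Jund. By gene, 5 of the 8 pooled STAT5A regions of Ier3 and 3 of the 4 of Fosl2 and of Jund overlapped LSD1, while none of the 3 of Egr2 and not the 1 of Jun did.

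The relatives of the 10 genes, in lists also chosen with earlier results of these data known, were counted in the same way. A gained STAT5A region lay within 50 kb of 10 of the 22 other AP-1 and ATF family genes (45.5%), and of 14 of 32 other immediate early genes (43.8%). It lay near 1 of 5 genes of the other EGR factors and their NAB corepressors, 2 of 7 of SRF and its partners (28.6%), and 4 of 21 of the MAP kinase cascade (19.0%). Over all genes the share was 15.6%. None of these lists had a gene with a lost STAT5A region (0.164% of all genes). Gained LSD1 regions lay near 6 of the 22, 6 of the 32, 0 of the 5, 0 of the 7 and 5 of the 21, against 9.09% of all genes. Lost LSD1 regions lay near 1 of the 22 and 2 of the 32, against 0.850% of all genes. HDAC3 had none gained in any list (0.00914% of all genes) and 1 lost (1.01%), among the other immediate early genes.

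**Figure D4:**
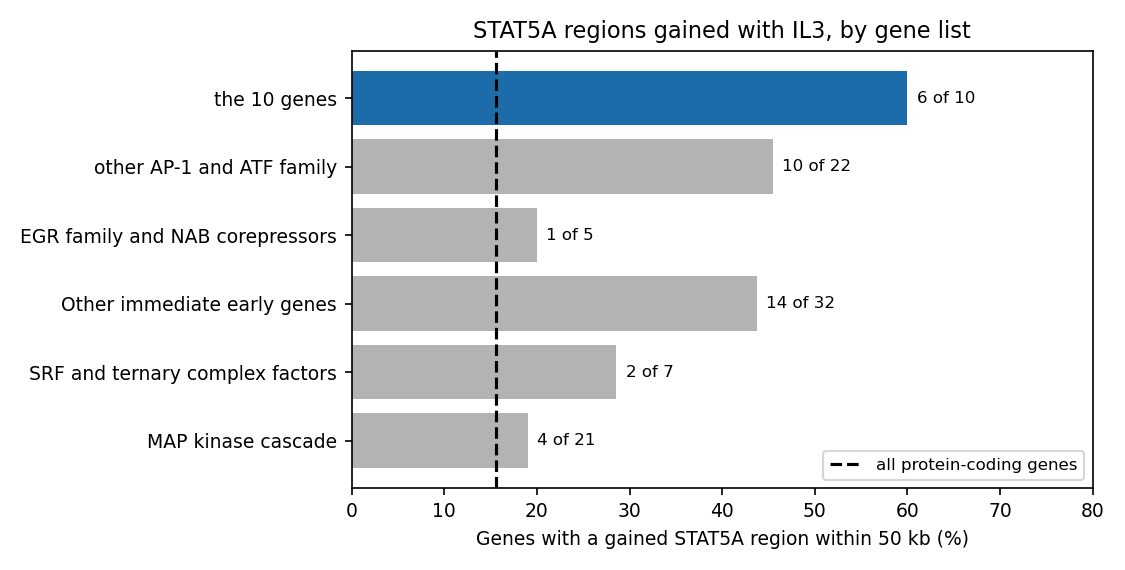
Percent of genes with a gained STAT5A region within 50 kb (bars, numbers beside them), for the 10 genes in blue and 5 lists of related genes in grey, with a dashed line at the share of all protein-coding genes, 15.6%. The bar of the 10 genes ends at 60.0% and that of the MAP kinase genes at 19.0%.

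In the AP-1 and ATF list the highest pooled STAT5A scores with IL3 were at Nfe2 (245.7), an erythroid and megakaryocyte factor, at Batf and Jdp2 (222.2, 1 region between the genes of these AP-1 partners) and in Nfe2l2 (220.0), the oxidative stress factor NRF2. Among other immediate early genes, Csrnp1 (376.0) exceeded Egr1, and Trib1 (277.7), Zfp36l1 (258.5) and Ier5 (232.9) exceeded Fosl2. The corepressors Nab1 and Nab2 had 53.4 each, Egr3 32.0 and Wt1 15.0. The ternary complex factors Elk3 (62.0) and Elk1 (23.5), the SRF coactivator Mrtfa (44.9) and Srf (27.8) had the highest scores of their 7 genes. The MAP kinase pathway genes Map2k4 (173.0), Sos1 (166.6) and Mapk14 (158.1) stood higher, as the top scorers of a longer list of 21. By share of genes with a gained STAT5A region the order was the reverse, 28.6% against 19.0%.

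The pattern most like that of Egr1 over the 12 replicate lists, by presence or absence of a region within 50 kb, was that of Nfkbia, which codes for the inhibitor IκBα and matched in 12 of 12. Among the 8 genes at 11 of 12, of 87 compared, were Crem and Nr4a1, taken by their STAT5A score. Presence in a list was not corrected for its length. Of the 10 genes themselves, Ier3 had a region in 11 of the 12 lists, Fosb and Ier2 in 9, Egr1 and Junb in 8, Fos in 7, Fosl2 and Jund in 6, and Jun and Egr2 in 4.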

How the data were processed

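The 12 libraries are ChIP-seq of STAT5A, LSD1 or HDAC3 from Ba/F3 cells. Trimmomatic 0.30, Bowtie2 2.1.0, Picard 1.92, HOMER 4.8 and the mm10 assembly are named in the submitters' processing notes. How the caller was set, with which control and threshold, was not given in the sources used here. The authors deposited 1 list of fixed-width regions per library and 1 per pooled group, each region with a score of undefined scale. The input library was not used here.

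Regions within 50 kb of the bounds of each gene (RefSeq, GRCm38.p6, the coordinates of mm10) were counted with Python 3.11.15 and numpy 2.4.6. Replicate lists of 1 protein were merged where they share 1 bp or more, and a merged region was called gained or lost as the text defines. A two-sided exact permutation test compared libraries, with Benjamini-Hochberg adjustment over 6 tests. Wilson intervals were computed with scipy 1.17.1. The counting was tested on simulated lists. Promoter windows and gene bounds come from RefSeq tables, Egr1 and Ier2 have no strand there, and exons and introns were not available to annotate regions.

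All 10 genes are named. From each list of related genes, the 4 with the highest-scoring region in the pooled STAT5A list with IL3 are named, as are the 4 most like Egr1 and neighbours in which a region lies; 1 item is not reported here. The genes and lists were chosen with earlier results of these data known. Alternatives were other windows, other overlaps, only the upper part of each list, left-out replicates, pooled lists and a replicate block.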

Additional observations from a re-analysis of the deposited data

How the results depend on the processing

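Of 105 alternatives, 15 turned a sign and 22 moved a count by over 1.5 times. In the other 68, differences kept their sign but not always their size, and counts stayed within 1.5 times. The difference in number was 8.0 for STAT5A and -1.5 for HDAC3 within 10 kb, and 5.50 for LSD1 within 100 kb and in the upper 50% of each list by score (the upper part). The STAT5A share difference turned to 0.0245 within 10 kb and 0.0526 in the upper part, and the LSD1 share difference to -0.00377 within 10 kb, -0.0426 within 100 kb and -0.0633 in the pooled lists. The HDAC3 share difference turned to 0.0358 within 10 kb, 0.0542 in the upper part and 0.125 pooled, and the LSD1 number to -10 pooled. Leaving out 1 library at a time gave differences in number of 11.5 to 36.5 for STAT5A, -26.5 to 30.5 for LSD1 and -8.50 to 1.5 for HDAC3. Differences in share were -0.205 to -0.106, -0.00904 to 0.0731 and -0.430 to 0.302. Genes with a gained region, with 1 library left out, numbered 6 to 10 for STAT5A, 5 to 10 for LSD1 and 0 to 3 for HDAC3. For STAT5A they were also 4 within 10 kb (6.67% of all genes), 7 within 100 kb (23.9%), 5 in the upper part (11.3%) and 5 with a gap of up to 200 bp (16.5%). For LSD1 they were also 2 within 10 kb (4.18% of all genes), 2 in the upper part (4.42%), 1 with 50% overlap (10.5%) and 3 with a gap of up to 200 bp (9.31%). Within 10 kb and in the upper part, the 21 overlaps of STAT5A and LSD1 with IL3 became 11 and 13, and the 14 without IL3 became 5 and 5. Those of STAT5A and HDAC3 with IL3 became 4 and 4, and those without IL3 became 2 and 1, and 2 with 50% overlap. Overlaps of LSD1 and HDAC3 without IL3 became 6 and 7, and 8 in replicate lists, and those with IL3 became 4 in replicate lists. Windows and list parts that hold fewer regions lower such counts by construction; the cause of the sign changes was not tested.

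With a replicate block, the STAT5A difference of 24.0 had an exact sign-flip p of 0.5, the smallest that 2 pairs allow, and no result changed side of the threshold. Equal numbers are not stated to mark a shared culture: deviations correlated at 0.17, 0.11 and 0.20 for STAT5A, LSD1 and HDAC3 over 21887 genes. With 2 libraries a group, the exact tests used here could not pass 0.05, and binding below a list's lowest score was not detectable.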
